A study of Mus musculus with 6 samples.

Results

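The mitochondrial carrier family, encoded by the Slc25 genes, was followed in sorted muscle stem cells, which repair skeletal muscle, after deletion of Opa1. Its members were all protein-coding genes with a Slc25a number as symbol, with Ucp1, Ucp2, Ucp3, Mtch1 and Mtch2 added, which gave 52 of the 49652 gene rows. OPA1 is the protein that joins inner membranes when mitochondria fuse and that keeps their cristae in shape. The KO group (n = 3 libraries) came from Cre-positive and the WT group (n = 3 libraries) from Cre-negative mice of the OPA1-Pax7-CreERT2 design, aged 8 to 10 weeks. Both groups were given tamoxifen by gavage on 5 days, and 3 days after it cells were sorted from uninjured hindlimb muscle as positive for alpha-7 integrin and VCAM and negative for Sca1, CD45 and CD31. Cre is under the Pax7 promoter and needs tamoxifen, so deletion is aimed at the stem cells, but the presence of Cre itself also sets KO apart from WT. Whether each library is a separate animal is not in the labels, and the p-values therefore measure only how these libraries vary.

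Members of this family are small proteins of the inner mitochondrial membrane that swap metabolites between the cytosol and the matrix. Best known is the exchange of matrix ATP for cytosolic ADP, without which respiration cannot supply the cell, and other members move phosphate, carboxylic acids, amino acids, carnitine esters, cofactors, iron or glutathione. A few sit elsewhere: Slc25a17 in peroxisomes, and Slc25a46, Mtch1 and Mtch2 in the outer mitochondrial membrane. In skeletal muscle the heart and muscle form of the ADP/ATP carrier, Slc25a4, and the uncoupling protein gene Ucp3 are known as features of mature fibres, whereas Slc25a5 is known as the ADP/ATP carrier gene of growing cells.

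Libraries held 41410136 to 56591699 counts in genes in KO and 48329905 to 56606886 in WT, and family members took 0.351% to 0.412% of them in KO and 0.367% to 0.415% in WT. Opa1 stood at 17.5, 34.4 and 27.1 CPM (counts scaled to one library total after TMM normalisation) in KO replicates 1 to 3, against 68.2, 31.4 and 68.8 CPM in WT replicates 1 to 3. With that, the library labelled WT replicate 2 had an Opa1 level within the KO range. The log2 fold change of Opa1 was -1.09 (SE 0.37), with an unadjusted p of 0.0215 and an adjusted p of 0.99998 in edgeR's quasi-likelihood test. The libraries also differed within each genotype. Summed CPM of 10 cell cycle genes was 694, 77.1 and 79.4 in KO and 321, 82.9 and 304 in WT, and summed CPM of 8 immediate early genes was 12565, 35129 and 32064 in KO and 15641, 28770 and 5918 in WT. Xist, the transcript of the inactive X chromosome, was at 401, 393 and 244 CPM in KO and at 355, 0.0209 and 508 CPM in WT. Y-linked Ddx3y was at 0.141, 22.9 and 90.2 CPM in KO and at 0.0354, 226 and 23.3 CPM in WT, so KO replicates 2 and 3 and WT replicate 3 held both transcripts. Libraries of different genotype could also lie close to each other. A chi-square per gene of the counts of 2 libraries was taken over genes with at least 20 counts in their sum. It was 46.8 to 77.4 for 4 of 15 pairs, lowest for KO replicates 2 and 3. These pairs were KO replicate 1 with WT replicate 1, and KO replicates 2 and 3 and the library labelled WT replicate 2 with each other. The chi-square per gene was 164 to 218 for the other 11 pairs. Stem cell markers were high throughout, with Pax7 at 325 to 453 CPM in KO and 252 to 398 CPM in WT. All 8 of the list summed to 6824 to 8848 CPM in KO and 7235 to 10914 CPM in WT. Chodl alone was 2449 to 3983 CPM in KO and 2506 to 5869 CPM in WT. Calcr was lower in KO without overlap, at 178, 165 and 228 CPM against 273, 229 and 349 CPM in WT. Its log2 fold change was -0.58 (SE 0.20; unadjusted p 0.0244, adjusted p 0.99998, edgeR's quasi-likelihood test). The groups overlapped for the other markers of the list. Genes of the proteins sorted against were low, with Ptprc (CD45) at 0 to 0.651 CPM in KO and 0 to 0.337 CPM in WT, Ly6a (Sca1) at 4.86 to 19.2 CPM in KO and 4.62 to 13.6 CPM in WT, and Pecam1 (CD31) at 4.36 to 22.5 CPM in KO and 5.76 to 20.96 CPM in WT.

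Promoter sequences are shown for 3 pairs of genes whose levels frame what follows: the most abundant members Slc25a4 and Slc25a5, the aspartate/glutamate carrier genes Slc25a12 and Slc25a13, of which Slc25a12 passed the count filter and Slc25a13 did not, and the neighbouring Ucp2 and Ucp3. They run 5′ to 3′ from 250 bases before to 50 bases after the RefSeq start on GRCm38.p6, with CpG dinucleotides in capitals. Slc25a4 is on the minus strand (chr8:46211013-46211312), Slc25a5 on the plus strand (chrX:36795347-36795646), Slc25a12 on the minus strand (chr2:71367706-71368005), Slc25a13 on the minus strand (chr6:6217124-6217423), and Ucp2 (chr7:100493108-100493407) and Ucp3 (chr7:100472741-100473040) on the plus strand.
Slc25a4: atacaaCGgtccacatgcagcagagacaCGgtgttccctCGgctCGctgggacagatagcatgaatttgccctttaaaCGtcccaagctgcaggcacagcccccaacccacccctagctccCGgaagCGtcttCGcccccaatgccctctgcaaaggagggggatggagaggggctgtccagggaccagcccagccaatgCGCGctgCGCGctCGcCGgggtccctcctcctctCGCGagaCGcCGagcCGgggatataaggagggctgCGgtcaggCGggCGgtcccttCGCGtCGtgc
Slc25a5: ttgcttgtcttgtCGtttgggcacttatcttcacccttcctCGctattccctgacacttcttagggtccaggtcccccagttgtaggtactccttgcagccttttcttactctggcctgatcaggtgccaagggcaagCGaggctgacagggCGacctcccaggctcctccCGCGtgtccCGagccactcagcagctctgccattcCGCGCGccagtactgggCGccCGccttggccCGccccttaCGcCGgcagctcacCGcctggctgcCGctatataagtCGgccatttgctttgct
Slc25a12: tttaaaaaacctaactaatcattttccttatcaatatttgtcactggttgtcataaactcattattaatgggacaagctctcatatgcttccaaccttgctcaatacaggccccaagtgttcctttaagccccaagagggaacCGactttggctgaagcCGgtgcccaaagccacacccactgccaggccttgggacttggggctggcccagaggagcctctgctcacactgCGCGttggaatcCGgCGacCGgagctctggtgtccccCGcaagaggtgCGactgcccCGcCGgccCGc
Slc25a13: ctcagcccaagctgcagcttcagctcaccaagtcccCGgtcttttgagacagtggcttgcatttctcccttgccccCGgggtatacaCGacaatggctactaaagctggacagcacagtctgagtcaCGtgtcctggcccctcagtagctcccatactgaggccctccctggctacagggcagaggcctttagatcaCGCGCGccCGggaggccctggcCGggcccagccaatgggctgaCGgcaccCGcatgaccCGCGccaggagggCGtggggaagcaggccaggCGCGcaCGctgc
Ucp2: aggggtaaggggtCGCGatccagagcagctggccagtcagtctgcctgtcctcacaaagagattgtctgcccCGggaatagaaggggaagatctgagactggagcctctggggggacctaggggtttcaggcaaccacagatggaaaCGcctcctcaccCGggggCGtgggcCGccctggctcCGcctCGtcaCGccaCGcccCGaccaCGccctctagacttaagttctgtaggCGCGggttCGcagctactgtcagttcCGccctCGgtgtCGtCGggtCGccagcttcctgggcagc
Ucp3: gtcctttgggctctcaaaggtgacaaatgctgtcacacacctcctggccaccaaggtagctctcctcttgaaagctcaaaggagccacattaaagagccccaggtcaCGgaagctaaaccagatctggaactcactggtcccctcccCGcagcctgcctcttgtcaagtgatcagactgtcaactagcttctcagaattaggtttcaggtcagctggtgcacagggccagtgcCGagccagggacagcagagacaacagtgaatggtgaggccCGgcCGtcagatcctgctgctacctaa

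These windows held 25 CpGs in Slc25a4, 18 in Slc25a5, 12 in Slc25a12, 17 in Slc25a13, 21 in Ucp2 and 5 in Ucp3. A RefSeq promoter was at hand for 41 of the 52 members, with a median of 17 CpGs, against 7 over all 27025 genes with such a window. Those 27025 genes, unlike the members, were not limited to protein-coding genes, nor to genes that passed the count filter. Members that passed the count filter had a median of 18 CpGs (35 promoters) and those that did not a median of 15 (6 promoters), and among the untested members Slc25a31 had the most (22) and Ucp3 the fewest (5). The NRF1 motif, GCGC and TGCGC with 1 free base between them, searched on both strands like the others, was in 3 of the 41 (7.32%), those of Slc25a3, Mtch2 and Slc25a31, against 4.78% of all promoters. The ERR motif TCAAGGTCA was in 0 of the 41 and 0.407% of all, and the CRE motif TGACGTCA in 1 of the 41, that of Slc25a36, and 1.88% of all. These matches describe letters in the windows only.

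Muscle stem cells of both genotypes expressed most of the family, and 2 genes carried most of its RNA. Levels of different genes are given as TPM, a unit per transcript length, here counts per kilobase of merged exons scaled to the same total in each library, because only such values can be compared between genes. Slc25a4, which encodes the ADP/ATP carrier ANT1 (ENSMUSG00000031633.4, chromosome 8, 46206797 to 46211284, minus strand of GRCm38), was at 1380, 1238 and 1146 TPM in KO and 1337, 1182 and 1325 TPM in WT. Slc25a5, which encodes ANT2 (ENSMUSG00000016319.3, chromosome X, 36795651 to 36798807, plus strand), was at 1637, 941 and 996 TPM in KO and 1435, 1198 and 1337 TPM in WT. Each stood above 99.6% of protein-coding gene rows by its mean, and per exon length Slc25a4 was the higher of them in 2 of 6 libraries. Per coding length, 894 bases in both genes, Slc25a4 was the higher in every library, with means of 1126 TPM for Slc25a4 and 780 TPM for Slc25a5. Their order thus depends on the length used. Together they held 66.8%, 60.2% and 60.6% of the family's summed TPM in KO and 64.9%, 63.3% and 63.6% in WT. Near-identical copies such as the pseudogene Slc25a5-ps can share reads with Slc25a5, and reads that align more than once are not counted, so its level is uncertain.

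**Figure D1:**
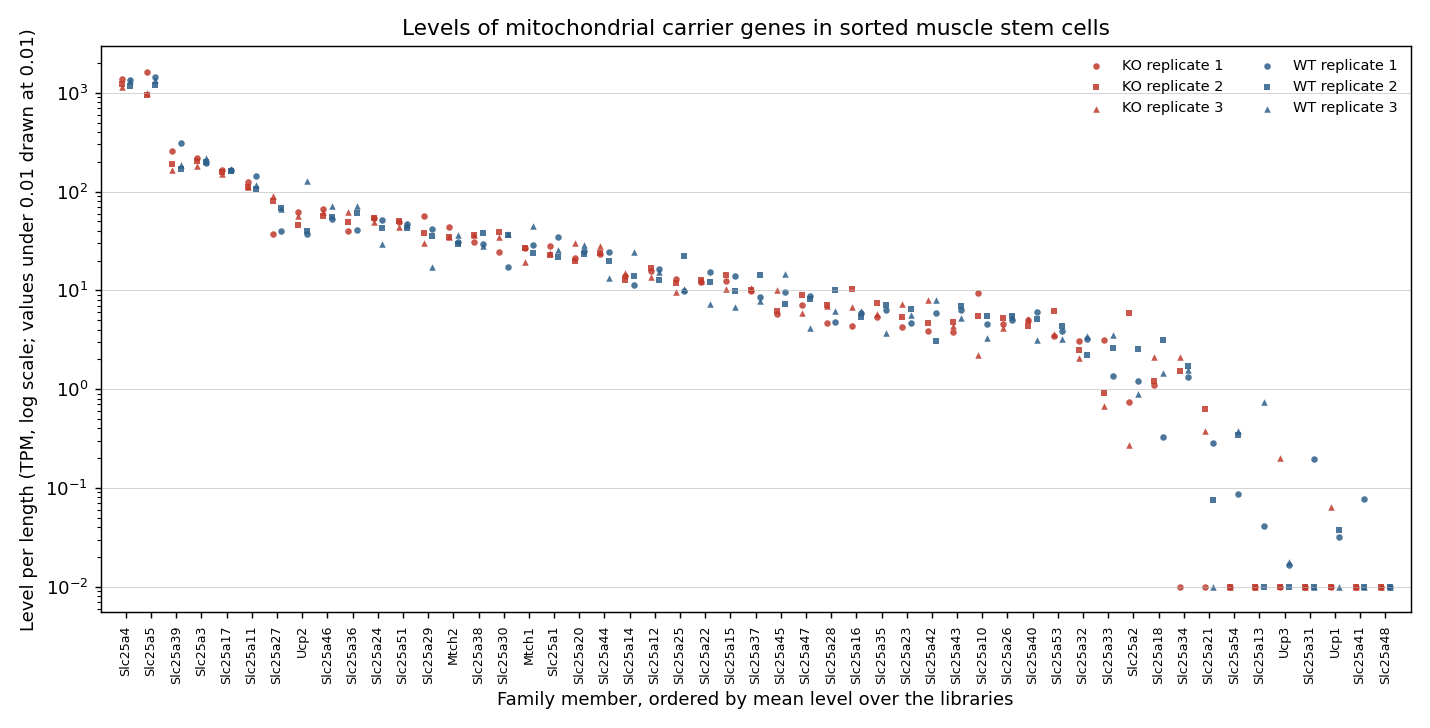
Level per length (TPM, log axis) of 51 of the 52 members in 3 KO libraries (red, left) and 3 WT libraries (blue, right), 1 point per library, ordered by the mean over the libraries; values under 0.01 are drawn at 0.01. Slc25a4 and Slc25a5 lie above 900 TPM in every library, Slc25a39 follows at 311 TPM or less, and the last 7 members did not pass the count filter.

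Below the ADP/ATP carriers came 4 members above 100 TPM in every library. Slc25a39, needed for glutathione import into mitochondria, was at 258, 190 and 166 TPM in KO and 311, 168 and 188 TPM in WT. Slc25a3, the phosphate carrier, was at 217, 204 and 183 TPM in KO and 196, 199 and 219 TPM in WT, and neither gene was the higher in all libraries. Slc25a17, the peroxisomal carrier of coenzyme A and related cofactors, was the steadiest of the family, at 166, 158 and 150 TPM in KO and 165, 163 and 170 TPM in WT (coefficient of variation 4.37% over the 6 libraries). Slc25a11, which exchanges 2-oxoglutarate for malate in the malate-aspartate shuttle, was at 126, 112 and 110 TPM in KO and 144, 106 and 117 TPM in WT. The ranges of Slc25a3, Slc25a17, Slc25a11 and the next gene in order, Slc25a27, did not overlap from each to the next.

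Ranks 7 to 12 overlapped with their neighbours. Slc25a27, the uncoupling protein relative UCP4 known from brain, had 37.4, 81.2 and 89.9 TPM in KO and 40.2, 67.5 and 67.4 TPM in WT. Replicate 1 of each genotype lay apart, below all other libraries. Ucp2, an uncoupling protein gene of many cell types, had 62.8, 46.0 and 57.2 TPM in KO and 37.1, 40.2 and 129 TPM in WT, where WT replicate 3 was far above the rest. Slc25a46, an outer membrane member tied to mitochondrial fusion and fission, had 67.2, 57.1 and 62.6 TPM in KO and 52.8, 55.5 and 71.8 TPM in WT. Slc25a36, a carrier of pyrimidine nucleotides, had 40.3, 49.4 and 61.9 TPM in KO and 40.9, 60.6 and 72.1 TPM in WT. The overlap means that the order within this stretch rests on less than the spread between libraries. Slc25a24, a calcium-regulated ATP-Mg/phosphate carrier, had 53.9, 53.7 and 49.5 TPM in KO and 51.9, 43.0 and 29.65 TPM in WT, and Slc25a51, the mitochondrial NAD carrier, 49.0, 51.0 and 43.8 TPM in KO and 46.5, 43.3 and 46.4 TPM in WT. Levels depend on the length used: with coding length, the mean of Ucp2 was 158 in place of 62.1 TPM and that of Slc25a36 176 in place of 54.2 TPM, while Slc25a4 and Slc25a5 stayed first and second.

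Seen by role, the ADP/ATP and phosphate carriers summed to 2729 TPM on average, the nucleotide and cofactor carriers to 313 TPM, the iron and glutathione carriers to 235 TPM, the uncoupling proteins and relatives to 173 TPM, the amino acid and carnitine carriers to 159 TPM, the carboxylate carriers to 151 TPM, the outer membrane members to 125 TPM and the ATP-Mg carriers to 65.4 TPM. Members of less settled or unknown substrate summed to 33.0 TPM. This order depends on the length used: with coding length the sums were 500 for the cofactor carriers, 303 for the uncoupling proteins and relatives, 239 for the outer membrane members, 221 for the iron and glutathione carriers and 201 TPM for the amino acid and carnitine carriers, with the ADP/ATP and phosphate carriers still first. Within the amino acid carriers the highest means per exon length were 36.7 TPM for Slc25a29, which carries basic amino acids, 33.1 TPM for Slc25a38, a glycine carrier needed for haem synthesis, 24.8 TPM for Slc25a20, the carnitine/acylcarnitine carrier of fatty acid oxidation, and 22.3 TPM for Slc25a44, which carries branched-chain amino acids, whereas per coding length Slc25a20 was first, at 45.05 TPM. Of the mitoferrins, iron carriers, Slc25a37 averaged 10.2 TPM and Slc25a28 6.64 TPM. Slc25a47, known from liver, averaged 7.19 TPM. Its annotated gene starts at position 108836046 of chromosome 12, next to the start of Slc25a29 on the other strand at 108835883. The window around the RefSeq start of Slc25a47 is chr12:108850879-108851178. Counts do not tell the annotated and the RefSeq start of Slc25a47 apart.

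Close relatives could differ widely, and 7 members were at or near 0. Slc25a12, the calcium-regulated aspartate/glutamate carrier aralar, was at 15.8, 16.9 and 13.7 TPM in KO and 16.5, 12.7 and 15.3 TPM in WT. Its relative Slc25a13, which encodes citrin, had 0 counts in every KO library and 3, 0 and 50 counts in WT, so that 50 of its 53 counts were in WT replicate 3. Ucp2 was expressed in every library, whereas its neighbour Ucp3 had 0, 0 and 12 counts in KO and 1, 0 and 1 in WT. Ucp1, the uncoupling protein of brown fat, had 2 counts in KO and 2 in WT in all. Slc25a31, the ADP/ATP carrier of male germ cells, had 8 counts, all in WT replicate 1, and Slc25a41 had 2, also there. Slc25a54 had 0 counts in every KO library and 3, 10 and 12 in WT. Slc25a48 had 0 counts in all 6 libraries, which allows up to 0.0098 CPM over their 306158244 counts, counting error only. None of these 7 members passed the filter on low counts, so none entered the test. Without the filter Slc25a54 and Slc25a13 had unadjusted p-values of 0.0205 and 0.0329 in edgeR's quasi-likelihood test, each with an adjusted p of 0.854. Both p-values rest on a few WT counts, for Slc25a13 mostly in WT replicate 3, and are no evidence of a difference. Mature fibre markers summed to 207, 282 and 478 CPM in KO and 297, 619 and 242 CPM in WT. All 4 brown fat markers, which are Ucp1 itself, Adipoq, Plin1 and Cidea, were under 1 CPM in every library.

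The comparison of KO with WT asks whether loss of the inner membrane fusion protein is followed by a change in carrier transcripts within days. Of the 45 members that passed the count filter, 0 were called at an adjusted p under 0.05 by edgeR's quasi-likelihood test, where 0% of the 18832 genes tested were called (393 at an unadjusted p under 0.05, or 2.09%, made up of 1.08% higher and 1% lower in KO). Family members at an unadjusted p under 0.05 numbered 0, and DESeq2 called 0 members and 20 genes in all (0.106%). Log2 fold changes were positive for 20 and negative for 25 members (51% of all genes were positive), with a median of -0.04 over the family and 0.01 over all genes tested. The direction turned with 1 library left out for 27 of the 45 members. That count was not made over all genes, so it is not read as a trait of the family. The middle 50% of members lay between -0.19 and 0.10, against -0.18 and 0.23 for all genes. For 27 of the 45 members (60%) the 95% interval of the log2 fold change lay inside -1 to 1, so a 2-fold change in either direction fell outside it; over all genes this held for 44.6%. In bulk samples fewer cells of a type and less RNA per cell cannot be told apart.

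**Figure D2:**
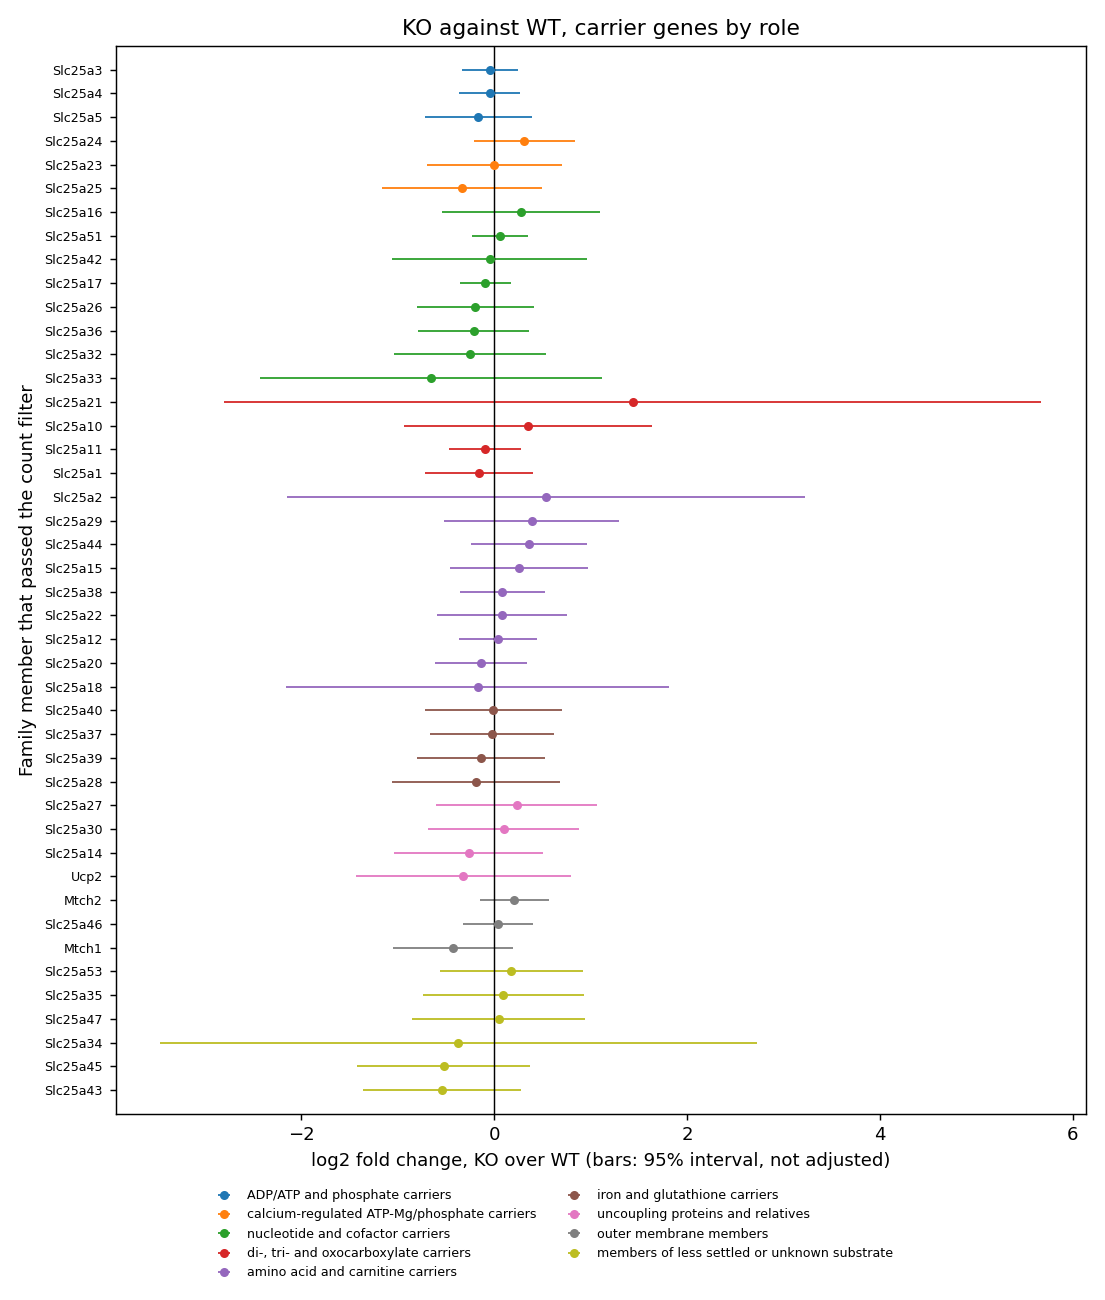
Log2 fold change, KO over WT, of 44 of the 45 members that passed the count filter, by role (colours), with 95% intervals that are not adjusted for the number of genes. Every interval includes 0, and the widest belong to the low members Slc25a21, Slc25a34, Slc25a2, Slc25a18 and Slc25a33.

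The ADP/ATP and phosphate carriers, the core of ATP export, had 0 of 3 tested members called, and all 3 log2 fold changes were below 0 by less than their SE. Slc25a4 had 1096, 974 and 900 CPM in KO, against 1072, 954 and 1040 CPM in WT, with overlapping groups and a log2 fold change of -0.05 (SE 0.13, 95% interval -0.36 to 0.27). Slc25a3 had 406, 379 and 340 CPM in KO, against 371, 379 and 406 CPM in WT, with -0.04 (SE 0.12, 95% interval -0.34 to 0.25). Slc25a5 had 909, 518 and 548 CPM in KO, against 804, 676 and 734 CPM in WT. KO replicate 1 was the highest of all libraries for this gene and KO replicates 2 and 3 the lowest, and the order of the 6 libraries was that of the summed CPM of cell cycle genes, whose part in the result was not tested. The log2 fold change of Slc25a5 was -0.17 (SE 0.23, 95% interval -0.72 to 0.39), and without KO replicate 1 it was -0.47, with an unadjusted p of 0.0119 and an adjusted p of 0.99984 by edgeR's quasi-likelihood test. Slc25a31 was not tested.

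**Figure D3:**
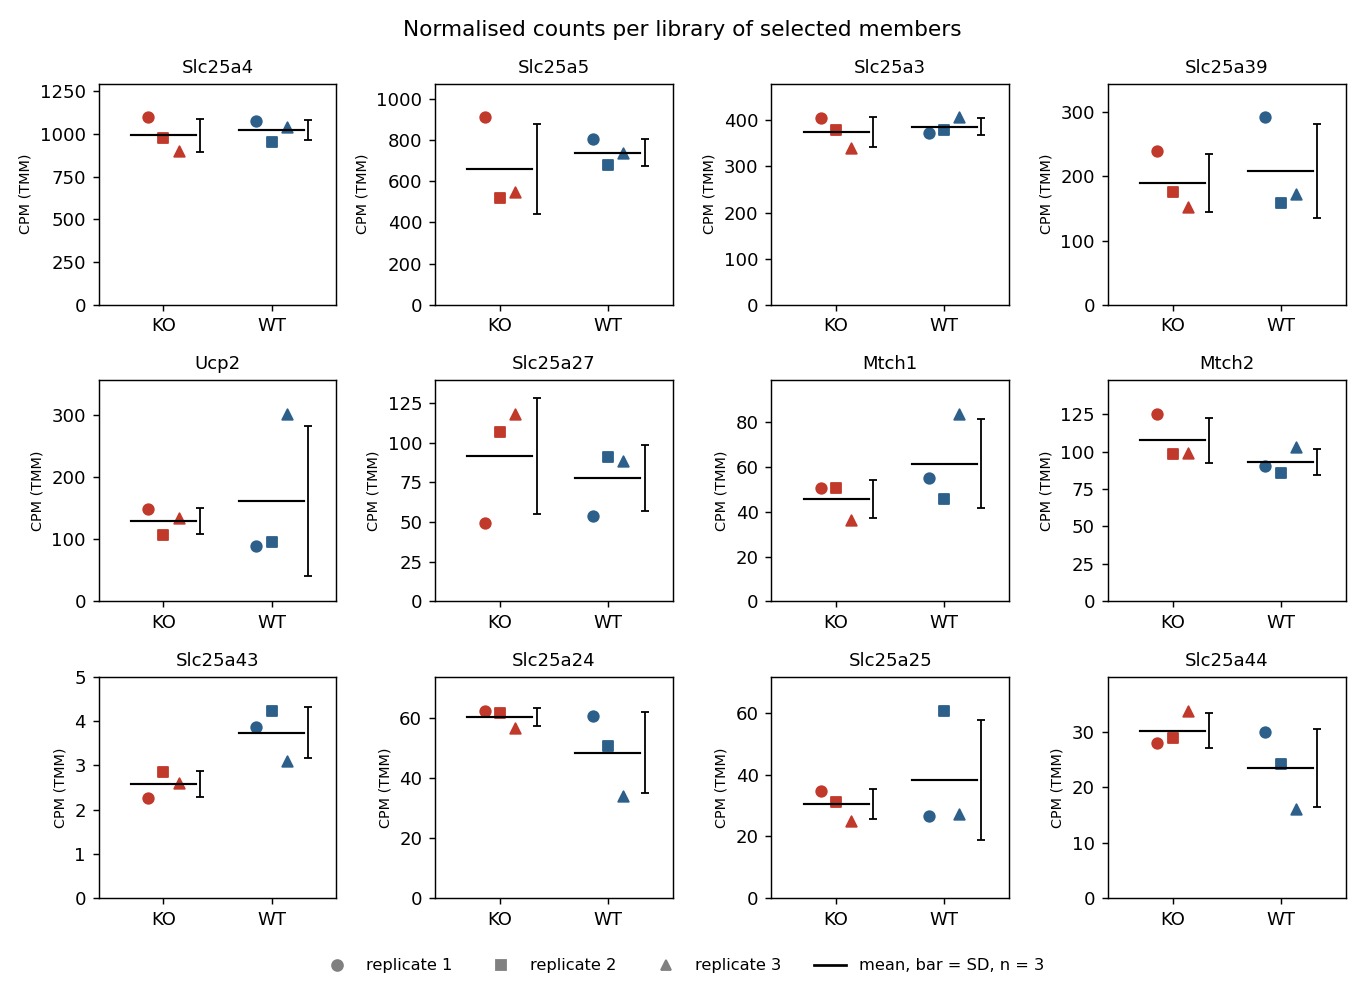
Normalised counts (CPM after TMM scaling) of 12 members in KO (red) and WT (blue) libraries, with the replicate as symbol, the group mean as a line and the SD as a bar (n = 3). Only Slc25a43 has KO and WT libraries that do not overlap; KO replicate 1 stands high for Slc25a5 and WT replicate 3 for Ucp2.

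Calcium-regulated ATP-Mg/phosphate carriers, which load the matrix with adenine nucleotides, had 0 of 3 tested members called. Slc25a24 had 62.4, 61.6 and 56.7 CPM in KO, against 60.6, 50.6 and 33.9 CPM in WT (log2 fold change 0.32, SE 0.22). WT replicate 3 was the lowest, and without it the value was 0.11. Slc25a25 had 34.7, 31.2 and 25.1 CPM in KO, against 26.6, 60.7 and 27.2 CPM in WT (log2 fold change -0.33, SE 0.35), and without the library labelled WT replicate 2 the direction turned, to 0.17. Slc25a23 averaged 10.0 ± 2.63 CPM in KO and 10.0 ± 1.70 CPM in WT (SD, n = 3 each).

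Of the 9 nucleotide and cofactor carriers, all tested, 0 were called, with 2 positive and 7 negative log2 fold changes and a median of -0.14. Slc25a33, a pyrimidine nucleotide carrier, had 2.01, 0.579 and 0.423 CPM in KO, against 0.866, 1.67 and 2.21 CPM in WT (log2 fold change -0.65, SE 0.75, and -1.66 without KO replicate 1). Its exons overlap those of the antisense gene Gm13068 over 14.9% of their bases. Its relative Slc25a36 had 130, 159 and 198 CPM in KO, against 134, 199 and 231 CPM in WT. Replicate 1 was the lowest of its group in both genotypes. Slc25a17 averaged 151 ± 8.18 CPM in KO and 160 ± 1.51 CPM in WT (log2 fold change -0.09, SE 0.11, 95% interval -0.35 to 0.18). Slc25a51 averaged 88.6 ± 6.97 CPM in KO and 84.8 ± 2.84 CPM in WT, and Slc25a26, the mitochondrial S-adenosylmethionine carrier, 7.54 ± 0.859 CPM in KO and 8.61 ± 0.361 CPM in WT (SD, n = 3 each).

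Slc25a16 and Slc25a42, both linked to coenzyme A, averaged 11.6 ± 4.82 and 11.1 ± 4.30 CPM in KO, against 9.51 ± 0.530 and 11.5 ± 4.83 CPM in WT, and Slc25a32, the carrier of folate and flavin, 5.17 ± 1.05 CPM in KO and 6.15 ± 1.30 CPM in WT (SD, n = 3 each).

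Carboxylate carriers link the TCA cycle to the cytosol, and 0 of 4 were called. Slc25a1, which exports citrate for fatty acid and sterol synthesis, averaged 18.1 ± 2.13 CPM in KO and 20.1 ± 4.89 CPM in WT (SD, n = 3 each). Slc25a11 had 90.3, 79.5 and 78.1 CPM in KO, against 104, 76.9 and 82.9 CPM in WT (log2 fold change -0.09, SE 0.16). Slc25a10, the dicarboxylate carrier, was at 10.98, 6.29 and 2.57 CPM in KO and 5.34, 6.45 and 3.76 CPM in WT, so the KO libraries spanned the WT range. Slc25a21, the oxodicarboxylate carrier, had the largest log2 fold change of the 45 members, 1.44, but with an SE of 1.79, and rested on 0, 43 and 35 counts in KO and 27, 6 and 0 in WT.

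Amino acid and carnitine carriers had 7 positive and 2 negative log2 fold changes among 9 tested members, a median of 0.09 and 0 calls. Slc25a44 had 28.0, 28.9 and 33.8 CPM in KO, against 30.0, 24.3 and 16.1 CPM in WT (log2 fold change 0.37, SE 0.25). Slc25a29 had 50.3, 33.0 and 26.5 CPM in KO, against 37.2, 31.6 and 15.1 CPM in WT (log2 fold change 0.39, SE 0.38), and Slc25a15, the ornithine carrier of the urea cycle and polyamine supply, 23.7, 26.7 and 19.5 CPM in KO, against 26.9, 19.1 and 12.6 CPM in WT (log2 fold change 0.26, SE 0.30). In each of these 3 genes WT replicate 3 was the lowest library. Without it the log2 fold changes were 0.15 for Slc25a44, 0.09 for Slc25a29 and 0.02 for Slc25a15. Slc25a22, a glutamate carrier, averaged 24.9 ± 0.425 CPM in KO and 23.5 ± 8.35 CPM in WT, and Slc25a12 averaged 38.1 ± 4.09 CPM in KO and 36.9 ± 4.67 CPM in WT (SD, n = 3 each). Slc25a20 averaged 38.6 ± 8.93 CPM in KO and 42.5 ± 3.94 CPM in WT, and Slc25a38 averaged 31.6 ± 2.58 CPM in KO and 29.8 ± 5.39 CPM in WT (SD, n = 3 each). The low members Slc25a2, a further ornithine carrier gene, and Slc25a18, a further glutamate carrier gene, lay between 0.123 and 2.70 CPM in every library, with SEs of 1.14 and 0.84 on the log2 scale.

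Iron and glutathione carriers had 0 of 4 members called and 4 negative log2 fold changes, from -0.19 to -0.01, and each of the 4 turned positive with 1 library left out. The values were 0.19 for Slc25a39 and 0.20 for Slc25a40 without WT replicate 1, and 0.31 for Slc25a37 and 0.17 for Slc25a28 without the library labelled WT replicate 2. Slc25a39 had 240, 175 and 153 CPM in KO, against 292, 159 and 173 CPM in WT (log2 fold change -0.14, SE 0.28), and replicate 1 was the highest of its group in both genotypes. Summed erythroid markers were also highest in replicate 1 of each group, at 257, 33.0 and 214 CPM in KO and 423, 99.1 and 198 CPM in WT, and their part in the level of Slc25a39, a gene also known from red cell precursors, was not tested. Slc25a40, its close relative, averaged 13.6 ± 1.32 CPM in KO and 13.7 ± 4.46 CPM in WT. The mitoferrin gene Slc25a37 averaged 20.6 ± 0.782 CPM in KO and 20.9 ± 7.46 CPM in WT, and Slc25a28 averaged 7.86 ± 1.66 CPM in KO and 8.95 ± 3.50 CPM in WT (SD, n = 3 each).

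Among uncoupling proteins and relatives, 0 of 4 tested members were called. Ucp2 had 148, 107 and 134 CPM in KO, against 88.3, 96.3 and 301 CPM in WT. KO lay above WT replicates 1 and 2 and below WT replicate 3. Over all libraries this gave a log2 fold change of -0.32 (SE 0.47), which turned to 0.49 without WT replicate 3, with an unadjusted p of 0.0367 and an adjusted p of 0.99995 by edgeR's quasi-likelihood test. Ucp2 is also known from leukocytes. Leukocyte markers, of which 4 of 6 were under 1 CPM in every library, summed to 6.79, 15.9 and 16.2 CPM in KO and 6.36, 15.7 and 6.75 CPM in WT. Their part in the result was not tested. Slc25a27 had 49.7, 107 and 118 CPM in KO, against 53.9, 91.0 and 88.5 CPM in WT, and Slc25a30 had 37.3, 60.1 and 53.3 CPM in KO, against 26.6, 57.0 and 57.1 CPM in WT. For both genes replicate 1 was the lowest library of its group, in KO as in WT. Slc25a14, known as UCP5, averaged 11.05 ± 0.955 CPM in KO and 13.3 ± 5.42 CPM in WT (SD, n = 3 each).

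Outer membrane members included the smallest p-value of the family, and 0 of 3 were called. Mtch1, an outer membrane insertase for alpha-helical proteins, had 50.7, 50.8 and 36.2 CPM in KO, against 55.1, 45.8 and 83.7 CPM in WT, with overlapping groups and a log2 fold change of -0.42 (SE 0.26; unadjusted p 0.150, adjusted p 0.99998, edgeR's quasi-likelihood test). It was -0.14 without WT replicate 3. Mtch2, the related insertase that also binds the apoptotic protein BID, had 125, 98.5 and 98.8 CPM in KO, against 90.3, 85.6 and 103 CPM in WT, with a log2 fold change of 0.21 (SE 0.15, and 0.09 without KO replicate 1). Slc25a46 averaged 113 ± 9.68 CPM in KO and 110 ± 17.3 CPM in WT (SD, n = 3 each; log2 fold change 0.04, SE 0.15).

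Members of less settled or unknown substrate held the 1 member of 45 whose groups did not overlap, while 6.55% of all genes tested did so (3.43% higher and 3.12% lower in KO). Slc25a43 (ENSMUSG00000037636.6, chromosome X, 36743659 to 36777202, plus strand, the gene before Slc25a5 among these members on that chromosome) had 2.27, 2.845 and 2.61 CPM in KO, against 3.87, 4.24 and 3.10 CPM in WT. Every KO library was thus below every WT library, by a log2 fold change of -0.54 (SE 0.35; unadjusted p 0.165, adjusted p 0.99998, edgeR's quasi-likelihood test). The highest value was in the library labelled WT replicate 2, where Xist was at 0.0209 and Ddx3y at 226 CPM, and the part of sex in this X-linked gene was not tested. Slc25a45 had 5.42, 5.69 and 9.37 CPM in KO, against 8.98, 6.85 and 13.6 CPM in WT (log2 fold change -0.52, SE 0.38, and -0.21 without WT replicate 3). Slc25a35 and Slc25a53 averaged 7.67 ± 1.38 and 11.7 ± 3.99 CPM in KO, against 7.17 ± 2.36 and 10.4 ± 1.69 CPM in WT (SD, n = 3 each); 31.3% of the merged exons of Slc25a35 overlap Rangrf on the other strand, so its reads are uncertain. Slc25a47 averaged 7.37 ± 1.57 CPM in KO and 7.13 ± 2.56 CPM in WT, and Slc25a34 was at 0 to 1.90 CPM in KO and 1.22 to 1.59 CPM in WT.

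**Figure D4:**
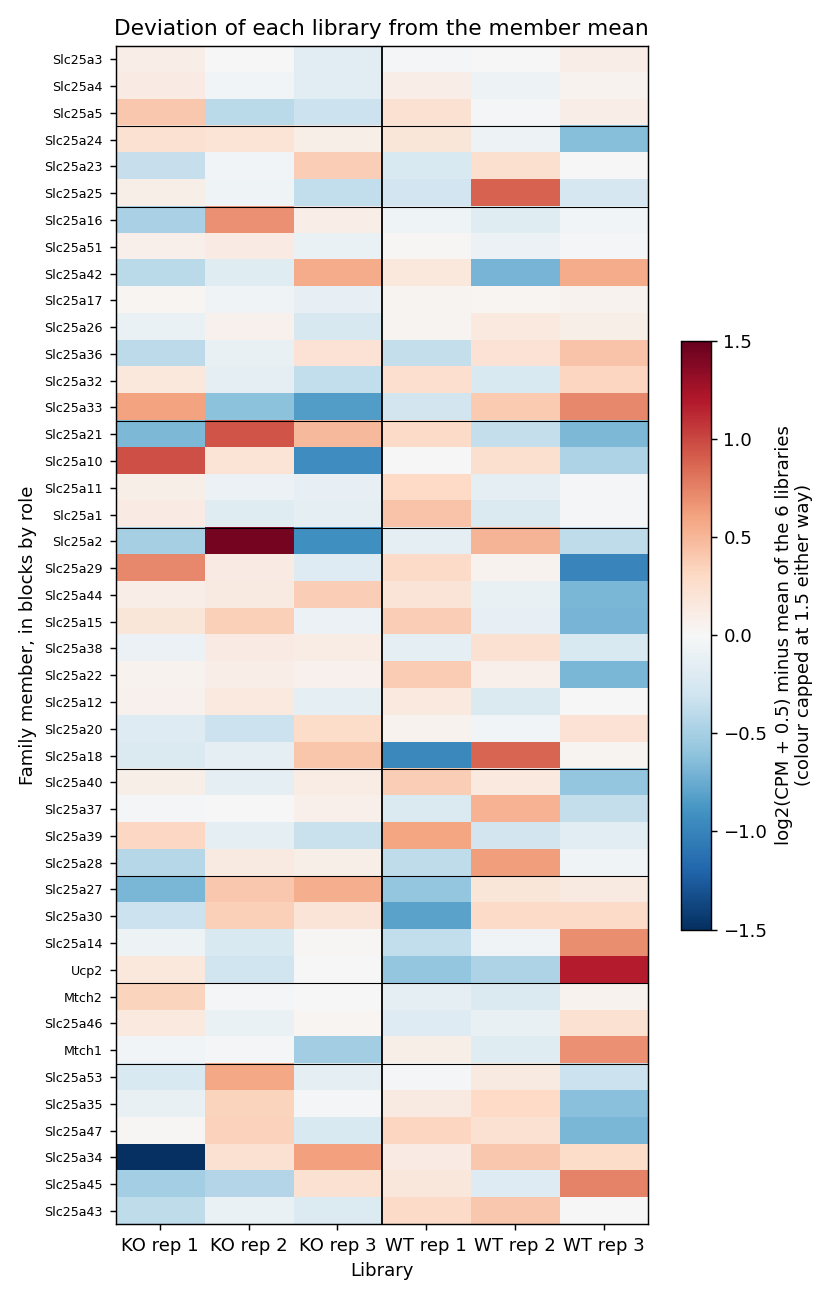
Deviation of each library (columns, KO left of the line, WT right) from the mean of the 6 libraries for 44 of the 45 members that passed the count filter, on the log2(CPM + 0.5) scale, in blocks by role. Libraries differ within each genotype for some members: WT replicate 3 is high for Ucp2 and low for Slc25a29, Slc25a44 and Slc25a15. Replicate 1 of both genotypes is low for Slc25a27 and Slc25a30.

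WT replicate 3 was the highest or lowest library for 21 of the 45 members (46.7%, against 36.9% of all genes tested), and KO replicate 3 for 18 (40%, against 28.6%). KO replicate 1 was an extreme for 16 members (35.6%, against 34.5%) and the library labelled WT replicate 2 for 13 (28.9%, against 34.7%). KO replicate 2 and WT replicate 1 were each an extreme for 11 (24.4%), against 35.8% of all genes for KO replicate 2 and 29.5% for WT replicate 1. WT replicate 3 also had the lowest summed immediate early genes and the highest summed stem cell markers (10914 CPM). Chodl made up 5869 CPM of that sum. Myf5 and Calcr were also highest there, while Pax7 (252 CPM) and Cdh15 (141 CPM) were lowest. Its summed fibro-adipogenic markers were the lowest, at 2658 CPM. They were 5008 to 5467 CPM in KO and 4367 to 4756 CPM in the other WT libraries. Gsn was most of that sum, at 1905 CPM against 3799 to 4822 CPM elsewhere. Ly6a and Col1a1 were also lowest there, while Dcn, Pdgfra and Cd34 were highest. The part of these genes and sums in the family's values was not tested.

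Partner genes of similar function divided their RNA in shares that overlapped between KO and WT in 8 of the 9 pairs compared. The exception was Mtch1, which took 38.0%, 43.8% and 35.7% of the summed TPM of Mtch1 and Mtch2 in KO, against 48.0%, 44.7% and 55.2% in WT. KO replicate 2 and the library labelled WT replicate 2 lay closest. The difference of -10.1 percentage points (-12.5 to -7.20 with 1 library left out) reached the smallest p that 3 against 3 libraries allow, 0.1 in the exact two-sided permutation test, and 0.9 after Benjamini-Hochberg adjustment over the 9 pairs. Slc25a4 took 45.7%, 56.8% and 53.5% of the ADP/ATP carrier pair with Slc25a5 in KO, against 48.2%, 49.7% and 49.8% in WT (exact permutation p 0.5, adjusted 0.9). The spread of this share was wider in KO, with an SD of 5.68 points, than in WT, with 0.856 points, and that difference in spread was not tested. Slc25a24 took 82.1% ± 1.67 of its pair with Slc25a25 in KO and 74.6% ± 9.14 in WT, and Slc25a37 took 62.3% ± 4.68 of the mitoferrin pair in KO and 59.4% ± 4.21 in WT (SD, n = 3 each). Slc25a39 held 97.6% ± 0.57 of its pair with Slc25a40 in KO and 97.8% ± 0.715 in WT, and Slc25a22 held 89.5% ± 3.62 of the glutamate carrier pair with Slc25a18 in KO and 86.9% ± 9.71 in WT (SD, n = 3 each). All these shares are per exon length and move with the length used. Means of Mtch1 and Mtch2 were 28.4 and 35.0 TPM per exon length, but 45.4 and 107 TPM per coding length. Means of Slc25a4 and Slc25a5 were 1268 and 1257 TPM per exon length, but 1126 and 780 TPM per coding length. The pairs Slc25a12 with Slc25a13 and Ucp2 with Ucp3 were not compared, as Slc25a13 and Ucp3 did not pass the count filter.

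**Figure D5:**
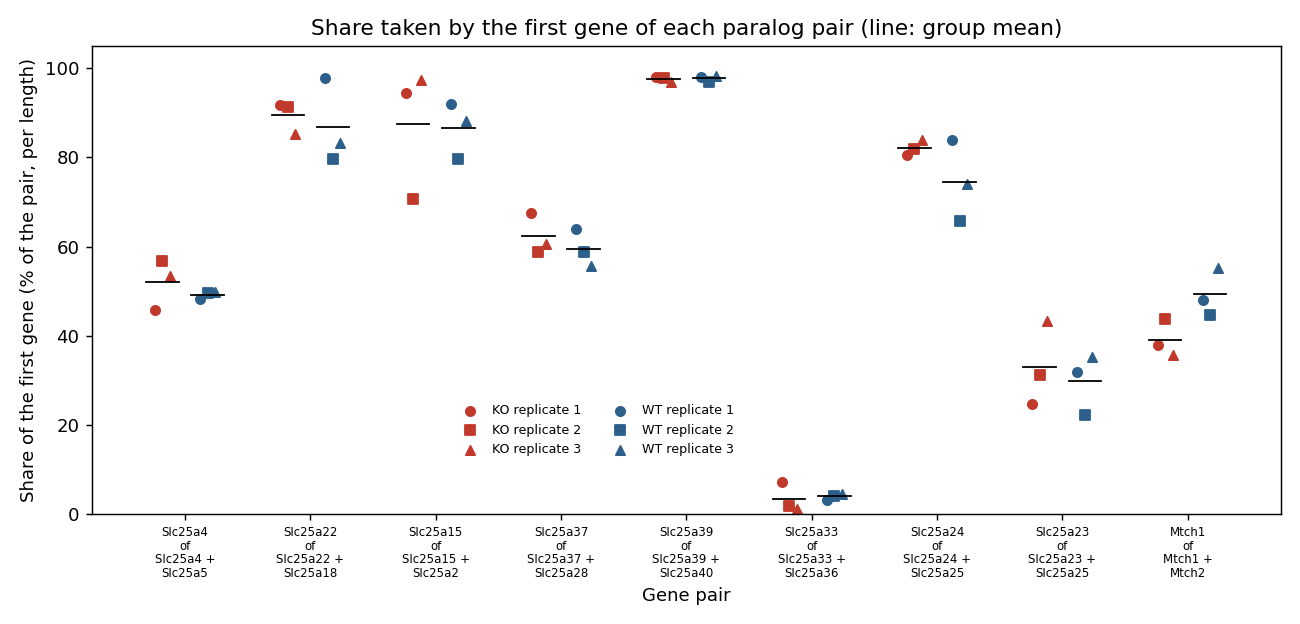
Share of the first gene in each of 9 gene pairs, in percent of the pair's summed TPM by exon length, per KO (red, left) and WT (blue, right) library, with the group mean as a line. KO and WT libraries do not overlap for Mtch1 in the pair with Mtch2, and Slc25a4 lies between 45.7% and 56.8% of the ADP/ATP carrier pair.

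Genes that work beside the carriers were followed in 3 lists. Of 13 genes of the route by which carrier proteins are imported into the inner membrane, 0 were called, with 5 positive and 8 negative log2 fold changes and a median of -0.09. Timm29, a subunit of the carrier translocase, averaged 101 CPM in KO and 111 CPM in WT (log2 fold change -0.14), without overlap of the groups, and Timm8b, a small chaperone of the intermembrane space, 38.0 CPM in KO and 44.2 CPM in WT (-0.22). Of 13 other inner membrane transport genes 0 were called, with a median of 0.04. Abcb10, an ABC transporter linked to haem synthesis, averaged 36.1 CPM in KO and 26.2 CPM in WT, without overlap of the groups (log2 fold change 0.46), and Sfxn1, the mitochondrial serine carrier, 69.3 CPM in KO and 59.9 CPM in WT (0.21). Of 15 shuttle and carnitine pathway enzymes 0 were called, with a median of 0.01. Cpt1b, the muscle form of carnitine palmitoyltransferase, averaged 1.34 CPM in KO and 3.08 CPM in WT, without overlap (log2 fold change -1.19), and Cpt1a, the form of most other tissues, 101 CPM in KO and 137 CPM in WT (-0.44). Groups thus did not overlap for 1 gene in each list of 13, 13 and 15 genes. Over all genes tested they did not overlap for 6.55%. SEs of the log2 fold changes were 0.11 for Timm29, 0.23 for Abcb10 and 0.55 for the low Cpt1b. No member of these 3 lists had an unadjusted p under 0.05 in edgeR's quasi-likelihood test, and each adjusted p was 0.99998.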

How the data were processed

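RNA-seq was compared between 3 KO and 3 WT libraries. The authors deposited raw read counts for each gene in each library. Reads had gone through Trim Galore 0.5.0, cutadapt 2.5, STAR 2.6.0c and HTSeq 0.6.1p2 on GRCm38, tools named without their settings per the submitters' processing notes. Strand setting and annotation release: not given in the sources used here. Whether reads of a gene and its antisense partner were kept apart is therefore unknown. The 5 summary rows stayed out of library sizes: reads without a feature were 11.2% to 17.0% of reads, ambiguous reads 1.21% to 1.42% and reads aligned more than once 14.8% to 24.6%. Symbols, biotypes and lengths came from GENCODE M21 on GRCm38 by gene ID (49399 of 49652 rows matched), and promoters from RefSeq on GRCm38.p6.

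KO was compared with WT by edgeR 4.0.16 (R 4.3.3; quasi-likelihood test, robust, TMM scaling, the package's filter on low counts, Benjamini-Hochberg over 18832 genes, called at an adjusted p under 0.05). Log2 fold changes (KO over WT) used a prior count of 0.125, and each SE is the size of the change divided by the root of its F. DESeq2 1.42.0, limma 3.58.1 (voom) and sva 3.50.0 gave alternatives. Intervals cover 95%. The limit that a count of 0 allows is 3 counts. The scripts were tested on simulated counts. Members and lists were chosen with earlier results of these data known. Values per library are given for the 12 members highest per length, members whose groups do not overlap, and the 5 per direction with the smallest p; other members were named after their values were seen. Of the neighbouring lists the 2 genes with the smallest p are named. The values of 1 member are not reported here; it is counted in the totals.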

Additional observations from a re-analysis of the deposited data

How the results depend on the processing

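Family members called by edgeR numbered 0 under every alternative run: RLE scaling, no filter, protein-coding nuclear genes only, the replicate block, 1 surrogate variable and each library left out. DESeq2 and limma voom also called 0 members. Over all genes DESeq2 called 20 and each of the others 0, and the cause was not tested. Members at an unadjusted p under 0.05 numbered 2 without the filter (Slc25a13 and Slc25a54, both low) and 0 to 2 with a library left out: Slc25a54 without KO replicate 1, 2 or 3 or WT replicate 1, Slc25a5 without KO replicate 1, and Ucp2 without WT replicate 3. Slc25a54 had 0 counts in every KO library and passed the filter in those runs only through its WT counts. Its p-values there are therefore no evidence of a difference, and neither are those of Slc25a13 and Slc25a54 without the filter. The median log2 fold change of the family ranged from -0.07 to 0.04, and that of Opa1 from -1.38 to -0.87, with a library left out. Directions turned with 1 library left out for 27 of the 45 members, a count that was not made over all genes. For the 7 of these that are given with a value in every library by the rule for named genes, log2 fold changes ranged from -0.53 to 0.17 for Slc25a25, -0.61 to 0.49 for Ucp2, -0.34 to 0.19 for Slc25a39, -0.13 to 0.0163 for Slc25a4, -0.10 to 0.0229 for Slc25a3, -0.18 to 0.0496 for Slc25a11 and -0.0389 to 0.18 for Slc25a46. Among the pair shares (KO minus WT, percentage points) they turned for Slc25a15 with Slc25a2 (-4.07 to 9.34, and -0.0314 with coding length), Slc25a22 with Slc25a18 (-1.09 to 8.07), Slc25a23 with Slc25a25 (-1.80 to 7.43), Slc25a33 with Slc25a36 (-2.52 to 0.57) and Slc25a39 with Slc25a40 (-0.607 to 0.115). The summed level of the family was 3875 to 4071 TPM with a library left out. Replicate numbers matched the likeness of libraries only in part. Deviations of same-numbered libraries correlated at 0.38, 0.18 and -0.07, and the value for replicate 1 was the highest of any KO with any WT library. KO replicate 3 and the library labelled WT replicate 2 correlated at 0.32. With the replicate block 0 members were called, and the family median was -0.02. Counts of the abundant members are not limited by depth, whereas those of Slc25a21, Slc25a2, Slc25a18, Slc25a34 and Slc25a33 are low enough for counting error to matter.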
